A study of Trichoderma reesei with 18 samples.

Results

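The light response gained in both mutants comprised 116 of the 10879 gene rows in a count table of the fungus Trichoderma reesei. A light response, L, was the log2 ratio of the mean level in light to that in darkness, after 1 CPM (a count scaled to the library's total) was added to each mean. The genes were chosen by their measured light responses: a mean level of 5 CPM or more in some group, an L between −0.5 and 0.5 in the wild type, and an L of at least 0.8 in size in both mutants. Of these 116 genes, 21 had higher levels in light in both mutants (raised), 61 had lower levels in light in both (lowered), and 34 responded in opposite directions. Among the 34, 22 were higher in light in Δ80186 and lower in light in Δ21168, and 12 were the reverse. Because L chose the genes, light against darkness is described below without a test in any strain.

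The study set 2 single-gene deletion mutants beside their parent strain QM6a (WT), all grown as mycelium on cellulose for 96 h at 28 °C, in constant light or in constant darkness. The groups were Δ80186 in light, Δ80186 in darkness, Δ21168 in light, Δ21168 in darkness, WT in light and WT in darkness, with 3 libraries each. Δ80186 lacks the gene TR80186 and Δ21168 lacks TR21168, which the series title names as MAP kinase kinases of the HOG and pheromone pathways. The labels mention neither independent transformants nor complemented strains, and they do not say that libraries came from separate cultures, so the spread behind each p-value may be technical.

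In fungi, a MAP kinase kinase is the middle enzyme of a cascade of 3 kinases that passes a signal from the cell surface to gene regulation. The HOG cascade is known for the response to osmotic and other stress, and the pheromone cascade for mating. Light reaches Trichoderma gene regulation through a blue light receptor complex, and in several filamentous fungi stress cascades of the HOG type also carry light signals. On cellulose, light is known to alter the output of cellulase genes and of other metabolic genes in this species.

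Library totals lay between 7945697 and 15672321 counts. Within a group, counts of 2 libraries correlated at 0.979 to 0.996 by rank, lowest for replicate 1 of Δ21168 in darkness, which correlated at 0.979 and 0.982 with the others of its group. Library numbers in the sample descriptions formed a series of their own for Δ21168, so that a library batch and the Δ21168 genotype cannot be told apart in comparisons with WT or Δ80186. Light and darkness of Δ21168 were in the same number series. The files pair neither the deleted genes nor other gene names with row identifiers. The row TrD0367C had 0 to 2 reads in the Δ80186 libraries, against 751 to 2269 in all others, and TrE0746W had 0 reads in every Δ21168 library, against 987 to 1710 in all others. Both rows were singled out by that loss of reads, which is therefore no check of the labels, and neither is among the 116 genes.

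None of the 116 row identifiers could be paired with a gene name, so roles cannot be given, and the genes are described by their levels. The few identifiers named follow a rule on the size of the response, on abundance or on the test result.

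Of the 4644 genes without a light response in WT, 351 had gained one in Δ80186 (7.56%) and 386 in Δ21168 (8.31%). The 116 shared genes were 33.0% of the first list and 30.1% of the second. Of 208 genes lower in light in Δ80186, 29.3% were also lower in light in Δ21168, and these were 31.8% of the 192 such genes in Δ21168. Of 143 genes higher in light in Δ80186, 14.7% were also higher in Δ21168, making up 10.8% of the 194 such genes there. These shares describe the choice and were not tested.

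**Figure D1:**
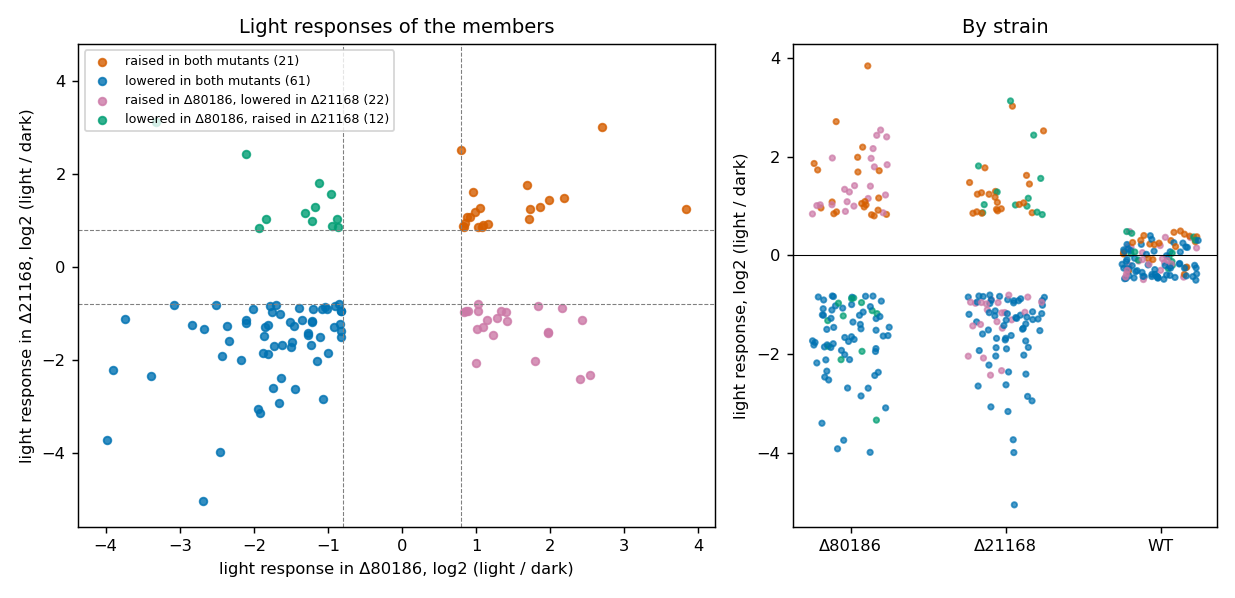
Left, the light response L (log2 of light over dark) of each of the 116 genes in Δ80186 on the x axis and in Δ21168 on the y axis, with dashed lines at 0.8 in size. Right, the same values by strain, with WT values between −0.50 and 0.49. The 61 genes lower in light in both mutants form the fullest quadrant.

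Light and dark values of the 3 libraries did not overlap in either mutant for 111 of the 116 genes, where 44.4% of the 8009 genes with at least 5 CPM in some group had no overlap in both mutants. This contrast is the one that chose the genes, so nothing is read from it. In WT, light and dark values did not overlap for 39 of the 116, beside 49.3% of the 4644 genes without a WT response. So the absence of a response in WT means an L under the limit, not values that were alike. The 1 CPM added to each mean also makes L smaller at low levels, so the change in WT can be larger than L there. TrF1143C, for example, had 14 to 20 reads per WT library in darkness and 6 to 10 in light, with an L of −0.44. Responses of at least 1 in size in both mutants were found for 68 genes, and of at least 2 for 11.

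The 61 genes lowered by light in both mutants had a median L of −1.64 in Δ80186, −1.34 in Δ21168 and −0.25 in WT. They were less abundant than most genes, with a median level of 14.2 CPM over all libraries, against 45.0 CPM for the 8009 genes. By the named-gene rule TrB0109W came first. Its 3 libraries of Δ80186 held 3.55, 3.87 and 3.44 CPM in light, against 86.9, 73.6 and 55.04 CPM in darkness. Those of Δ21168 held 6.06, 4.67 and 5.53 CPM in light, against 74.9, 99.2 and 77.7 CPM in darkness. In WT it was at 5.24, 6.57 and 6.85 CPM in light and at 4.74, 7.20 and 13.3 CPM in darkness. All mutant libraries in darkness thus stood above all others, while in light all strains were low. L was −3.98 in Δ80186, −3.73 in Δ21168 and −0.38 in WT, where it ranged from −0.64 to 0.05 when 1 library was left out.

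TrG0034W, the other gene of this kind, had 2.88, 3.53 and 4.19 CPM in Δ80186 in light, against 34.1, 29.7 and 20.6 CPM in darkness. In Δ21168 it had 1.21, 0.935 and 1.33 CPM in light, against 60.4, 85.8 and 63.9 CPM in darkness. WT libraries lay at 0.889, 2.94 and 5.20 CPM in light and 5.22, 4.98 and 2.60 CPM in darkness. The dark libraries of both mutants were the high ones, and light and dark values overlapped in WT. Only these dark mutant groups reached a mean of 5 CPM, so the gene was admitted through groups in which it was high. Its WT response of −0.40 depended on single light libraries: it was −0.86 without WT replicate 3 in light, and −0.06 without WT replicate 1 in light.

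The most abundant gene of this kind was TrD0455W, with 3732, 3565 and 3519 CPM in Δ80186 in light, against 6712, 6387 and 6256 CPM in darkness. In Δ21168 the libraries were at 1325, 1484 and 1315 CPM in light, against 3172, 3163 and 3283 CPM in darkness. WT was at 4433, 4268 and 3704 CPM in light and 5843, 5510 and 5329 CPM in darkness. Light values lay below dark values in every strain, and the WT response of −0.43 was close to the limit of −0.5. The 2 mutants differed in level: Δ21168 was the lowest strain in both conditions.

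The 21 genes raised by light in both mutants had a median L of 1.08 in Δ80186, 1.18 in Δ21168 and 0.25 in WT. TrA0339W responded most by the rule. It had 77.8, 63.2 and 67.4 CPM in Δ80186 in light, against 11.3, 13.2 and 4.94 CPM in darkness. In Δ21168 it had 32.9, 35.4 and 42.0 CPM in light, against 3.51, 4.03 and 3.46 CPM in darkness. In WT the values were 33.2, 35.5 and 39.2 CPM in light and 29.1, 27.7 and 20.3 CPM in darkness. The dark libraries of both mutants were the low ones. All WT libraries in light were above those in darkness, with an L of 0.47 that passed 0.5 when any of 3 WT libraries was left out, reaching 0.56.

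TrC0943C had 21.3, 27.1 and 25.9 CPM in Δ80186 in light, against 6.53, 7.01 and 7.45 CPM in darkness. In Δ21168 it had 12.8, 9.16 and 11.6 CPM in light, against 2.99, 3.02 and 1.69 CPM in darkness. WT libraries held 17.6, 20.4 and 18.2 CPM in light and 18.1, 15.1 and 14.7 CPM in darkness. Here too the mutants were below WT in darkness in every library, and this gene met the rule whichever library was left out. The most abundant of the raised genes, TrC0791W, was less certain. Its values in Δ21168 were 793, 314 and 385 CPM in light, against 104, 289 and 315 CPM in darkness, which overlap, and L in that strain was 1.07, but 0.56 without light replicate 1 and 0.72 without dark replicate 1.

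The 22 genes raised by light in Δ80186 and lowered in Δ21168 had a median L of 1.31 in Δ80186, −1.15 in Δ21168 and −0.11 in WT. TrD1407W had 114, 148 and 122 CPM in Δ80186 in light, against 11.9, 18.7 and 39.8 CPM in darkness. In Δ21168 it had 3.30, 2.43 and 5.20 CPM in light, against 17.2, 26.9 and 27.4 CPM in darkness. WT was at 1.33, 3.70 and 6.28 CPM in light and 3.76, 3.45 and 5.64 CPM in darkness. Both mutants were above WT in darkness in every library, and in light only Δ80186 was. No WT group of TrD1407W reached a mean of 5 CPM, so it was admitted through mutant groups in which it was high. TrB1283W is the most abundant of all 116 genes. It had 12415, 13905 and 13811 CPM in Δ80186 in light, against 3235, 3532 and 4488 CPM in darkness, and 3759.8, 4519 and 3810.3 CPM in Δ21168 in light, against 8243, 6313 and 7112 CPM in darkness. In WT the values were 2021, 1627 and 2169.6 CPM in light and 1554, 1459 and 1515 CPM in darkness, so that each mutant library exceeded every WT library. Its L in Δ21168 was −0.84, and −0.74 without dark replicate 1.

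The 12 genes lowered by light in Δ80186 and raised in Δ21168 had a median L of −1.20 in Δ80186, 1.09 in Δ21168 and 0.04 in WT. TrF0363W responded most. It had 54.8, 80.4 and 65.2 CPM in Δ80186 in light, against 1085, 668 and 288 CPM in darkness. In Δ21168 it had 2160, 472 and 1482 CPM in light, against 139, 107 and 224 CPM in darkness. WT libraries lay at 661, 1561 and 791 CPM in light and 1092, 873 and 950 CPM in darkness. Every Δ80186 library was below every WT library in light, and every Δ21168 library was below every WT library in darkness. Values within a group spread widely, but L stayed between −3.69 and −2.82 in Δ80186 and between 2.64 and 3.53 in Δ21168 when 1 library was left out.

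**Figure D2:**
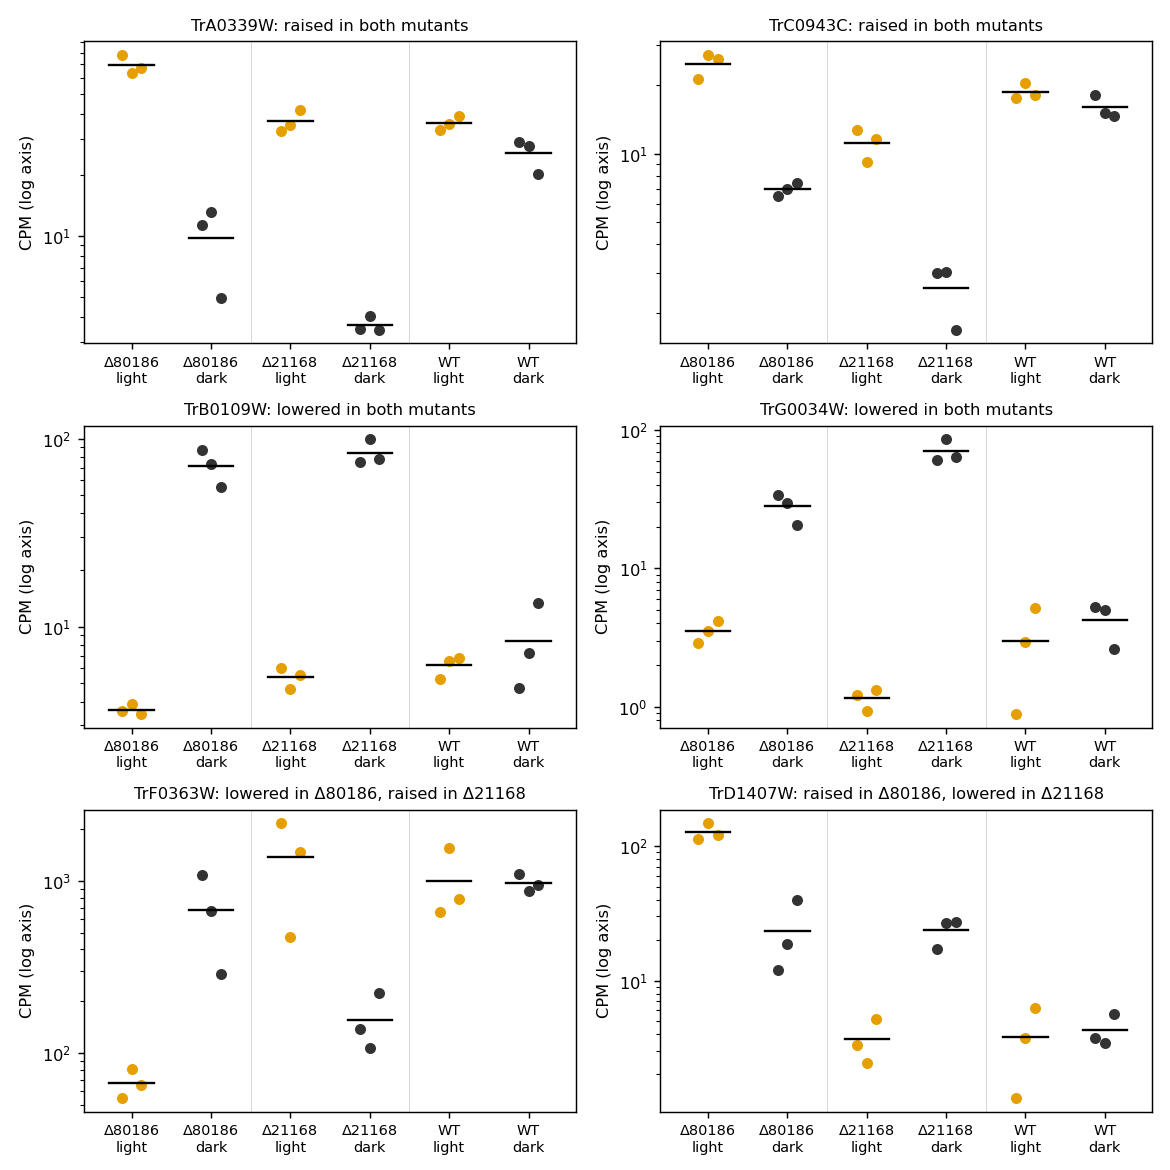
CPM (log axis) in each library of the 6 genes with the largest responses by the naming rule. Orange points are light libraries, black points dark libraries, and bars the mean of the 3 libraries of a group. For TrB0109W and TrG0034W the dark mutant groups stand above the other groups, for TrA0339W and TrC0943C they stand below them. TrG0034W reached a mean of 5 CPM in the dark mutant groups alone, and TrD1407W in no WT group.

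A gain of a response can lie in the dark level, in the light level or in both. The rule fixes how the 2 departures from WT differ, but not which of them is larger, so the following is a description without a test. The CPM minimum bears on it too: 29 of the 116 genes, 23 of them lowered in both mutants, reached 5 CPM in no WT group, so that they were admitted through a mutant group in which they were high. Most of the 61 genes lowered by light in both mutants were above WT in darkness. In Δ80186, 51 of 61 had a higher mean than WT in darkness, where 50% of the 8009 genes did, and 33 were at least 1 log2 unit higher, where 4.78% were. In Δ21168, 50 were higher in darkness, beside 50.2% of all, and 35 were at least 1 log2 unit higher, beside 6.52%. With only genes that reached 5 CPM in both strains compared, 15 of 37 were at least 1 log2 unit higher in darkness in Δ80186, beside 3.59% of such genes, and 16 of 38 in Δ21168, beside 4.90%. The median difference from WT was −0.40 in light and 1.08 in darkness in Δ80186, and −0.05 in light and 1.16 in darkness in Δ21168, on the log2 scale with 1 CPM added. In light, 13 in each mutant were at least 1 log2 unit lower than WT, beside 8.08% and 3.55% of all genes, and 3 in Δ80186 and 5 in Δ21168 were at least 1 log2 unit higher, beside 8.35% and 5.42%. Above WT in light were 17 in Δ80186 and 29 in Δ21168, beside 45% and 59.7%. The departure was larger in darkness than in light for 42 of the 61 in each mutant, and for 33 in both.

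All 21 genes raised by light in both mutants reached 5 CPM in WT. In darkness 16 of them were below WT in each mutant, beside 50% of all genes in Δ80186 and 49.8% in Δ21168, and 8 in Δ80186 and 6 in Δ21168 were at least 1 log2 unit lower, beside 4.78% and 6.01%. Their median difference from WT was 0.48 in light and −0.80 in darkness in Δ80186, and 0.24 in light and −0.47 in darkness in Δ21168. In light, 4 of the 21 in Δ80186 and 6 in Δ21168 were at least 1 log2 unit above WT, beside 8.35% and 5.42% of all genes. In Δ21168 the count equals the 6 that were lower by this size in darkness. The tie depended on the scaling: with TMM-scaled library sizes 4 were above in light and 6 below in darkness in Δ21168. In light 5 of the 21 were below WT in Δ80186 and 6 in Δ21168, beside 54.8% and 40% of all genes. The departure was larger in darkness for 13 in Δ80186 and for 10 in Δ21168, so that neither condition prevailed in Δ21168.

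Most, but not all, genes with opposite responses departed more from WT in light in Δ80186 and more in darkness in Δ21168. Of the 22 genes raised by light in Δ80186 and lowered in Δ21168, 21 were above WT in light in Δ80186, beside 45% of all genes, and 18 were at least 1 log2 unit higher, beside 8.35%. Of the 17 that reached 5 CPM in WT as well, 13 were at least 1 log2 unit higher in light, beside 7.88% of such genes. In darkness 18 of the 22 were above WT in Δ80186 and 19 in Δ21168, beside 50% and 50.2% of all genes. The 5 that reached 5 CPM in no WT group had to be high in a mutant. Of the other 17, 13 were above WT in darkness in Δ80186 and 14 in Δ21168, beside 49.6% and 49.7% of such genes. The median difference from WT was 2.87 in light and 1.20 in darkness in Δ80186, and 0.08 in light and 1.74 in darkness in Δ21168. By these medians over the 22, both mutants had higher levels than WT in darkness, and in light Δ80186 was higher still. Of the 22, 19 departed more from WT in light in Δ80186, and 16 departed more in darkness in Δ21168. Of the 12 genes lowered by light in Δ80186 and raised in Δ21168, 11 departed more from WT in light in Δ80186. The median of the 12 in that mutant was −1.64 in light and −0.48 in darkness. In Δ21168, 8 of the 12 departed more in darkness, with a median of 0.38 in light and −0.87 in darkness. Over all 8009 genes the departure was larger in darkness for 32.8% in Δ80186 and 53.3% in Δ21168.

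**Figure D3:**
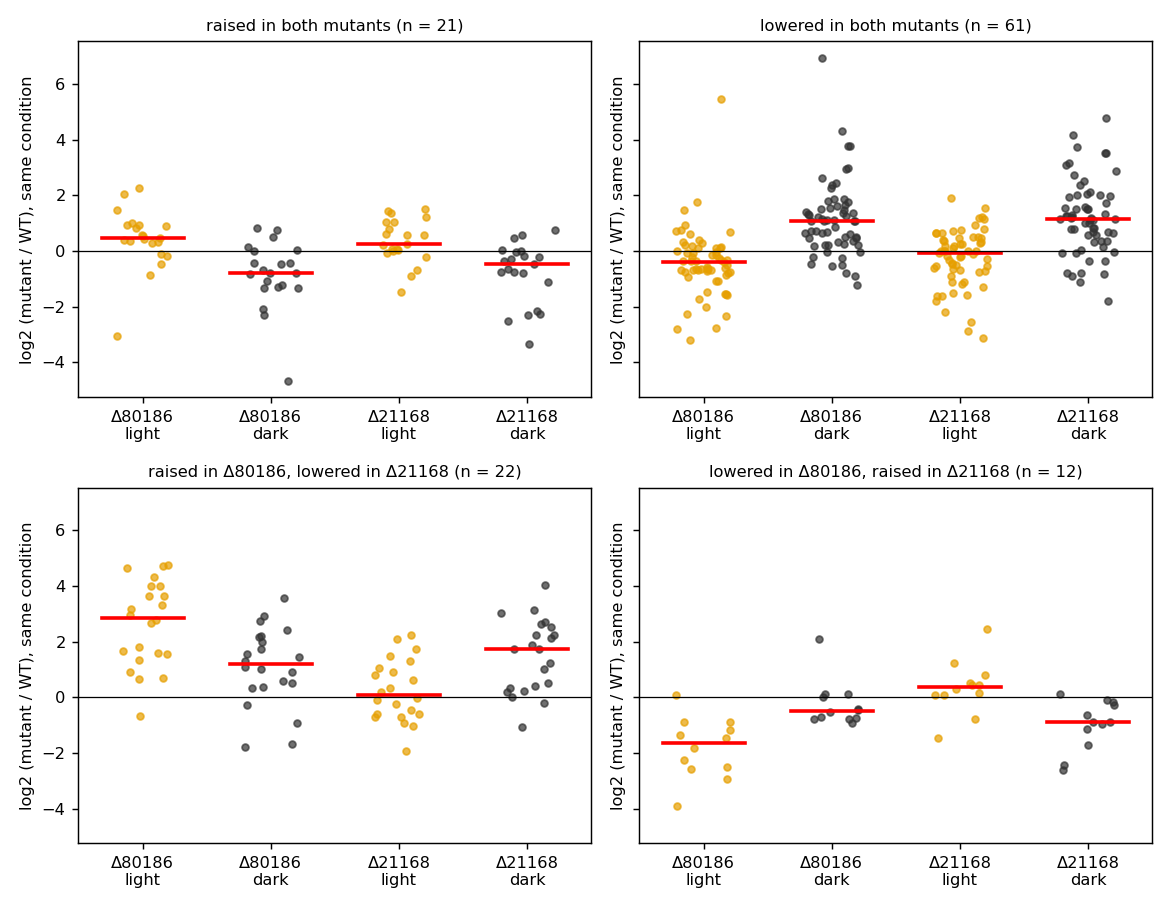
Difference of each mutant from WT in the same condition (log2 of means plus 1 CPM) for the 116 genes, in 1 panel per pattern of light response. Points are genes, orange in light and black in darkness, and red bars are medians. Genes lowered by light in both mutants have medians of 1.08 and 1.16 in darkness.

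The strain effect averaged over light and darkness does not enter the light responses and was tested across all 9079 genes that passed the filter on low counts, all 116 among them. A gene that departs from WT in 1 condition alone also moves this average, and a gene admitted through 1 strain had to be higher there, so a share of calls above that of all genes is not independent of how the genes were chosen. In Δ80186 against WT, 85 of the 116 genes changed (edgeR quasi-likelihood test, adjusted p under 0.05), 50 higher and 35 lower, or 73.3% against 57.4% of all genes tested. A change of 2-fold or more was seen in 33 genes that rose and 22 that fell, together 47.4% against 13.1%. In Δ21168 against WT, 88 changed, 52 higher and 36 lower, or 75.9% against 51.5%, and 35 of those that rose and 18 of those that fell did so by 2-fold or more, together 45.7% against 11.7%. Both comparisons share the WT libraries. The excess of higher over lower genes was not seen without the genes that missed 5 CPM in either strain: 33 were higher and 31 lower of 86 in Δ80186 (74.4% against 60.9% of such genes), and 33 were higher and 34 lower of 87 in Δ21168 (77.0% against 53.6%).

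Counts by direction are given for each pattern of light response beside the shares of all genes, which were 27.5% higher and 29.9% lower in Δ80186, and 25.6% higher and 25.9% lower in Δ21168. Of the 22 genes raised by light in Δ80186 and lowered in Δ21168, 18 were higher in Δ80186 than in WT, with a median log2 fold change of 2.27 over the 22, and 13 of the 17 that reached 5 CPM in both strains were higher. In Δ21168, 13 of the same 22 were higher and 6 lower than in WT, with a median of 1.18, and the 27.3% that were lower were near the share of all genes. Of the 17 that reached 5 CPM in both Δ21168 and WT, 9 were higher and 6 lower, the latter 35.3% beside 28.2% of such genes. Of the 12 genes of the reverse pattern, 11 were lower in Δ80186 than in WT, with a median of −1.09, and in Δ21168 6 were lower and 1 was higher. Among the 61 genes lowered by light in both mutants, 27 were higher and 16 lower in Δ80186, and 34 were higher and 16 lower in Δ21168. The lower ones were 26.2% in each mutant, near the shares of all genes, and the higher ones were 44.3% and 55.7%. Among those that reached 5 CPM in both strains, 40.5% and 50% were higher, beside 28.6% and 25.4% of all such genes. Lower were 32.4% in Δ80186 and 36.8% in Δ21168, beside 32.2% and 28.2%. Among the 21 raised in both, 5 were higher and 7 lower in Δ80186, or 23.8% and 33.3%, near the shares of all genes, and 4 were higher and 8 lower in Δ21168, or 19.0% and 38.1%. The median over all genes tested was −0.02 in Δ80186 and 0.01 in Δ21168.

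TrE0823C rose most in Δ80186 among the 116, and it reached 5 CPM in every group. It averaged 281 ± 11.8 CPM in Δ80186 in light and 870 ± 159 CPM in Δ80186 in darkness, 23.3 ± 4.79 and 127 ± 40.1 CPM in Δ21168 in light and in darkness, and 5.44 ± 4.44 and 6.01 ± 2.57 CPM in WT (SD, n = 3 each). No library of either mutant overlapped the WT libraries. The strain effect was 6.44 ± 0.33 (log2 fold change ± SE, edgeR adjusted p = 3.7e-09) in Δ80186 and 3.19 ± 0.31 (edgeR adjusted p = 2.0e-06) in Δ21168, in both of which light lowered it. Thus its levels in light in both mutants were also far above those of WT.

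TrF1143C was the next in Δ80186, with 41.6 ± 2.85 CPM in light and 15.9 ± 5.72 CPM in darkness in that mutant (SD, n = 3 each). It had 0 to 9 reads in light and 16 to 21 reads in darkness per library of Δ21168, and 6 to 10 and 14 to 20 reads in WT. It reached 5 CPM in Δ80186 alone and so had to be high there: the strain effect of 4.87 ± 0.24 in Δ80186 is given as a description. In Δ21168 against WT it was 0.14 ± 0.37 (edgeR adjusted p = 0.78). Its response of −0.94 in Δ21168 therefore rests on few reads, and was −0.72 without light replicate 1.

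Of the genes with no overlap with WT in either condition, TrE0251W and TrF0358W fell most in Δ80186. TrE0251W had 14.7, 15.6 and 19.6 CPM in Δ80186 in light and 7.03, 1.995 and 1.36 CPM in darkness, against 153, 120 and 166 CPM in WT in light and 42.4, 60.5 and 234 CPM in WT in darkness. The strain effect was −4.07 ± 0.76 (edgeR adjusted p = 0.00054). Every Δ80186 library was below every WT library, but the gene's place among the 116 is weak. In Δ21168 it had 325, 296 and 285 CPM in light, against 4.85, 245 and 81.3 CPM in darkness, and its WT response of 0.38 came to 1.49 without WT replicate 3 in darkness. TrF0358W had 3.18, 2.49 and 2.18 CPM in Δ80186 in light and 14.7, 13.2 and 7.81 CPM in darkness, against 25.2, 28.3 and 26.2 CPM in WT in light and 18.8, 23.5 and 21.4 CPM in WT in darkness. Its strain effect was −2.07 ± 0.19 (edgeR adjusted p = 1.8e-07), and in Δ21168 it was −0.33 ± 0.18 (edgeR adjusted p = 0.13).

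In Δ21168 the highest log2 fold changes over WT were those of TrD0682C and TrF0701C. Both reached 5 CPM only in Δ21168, and so had to be high there, and their values are a description without a test. TrD0682C had 6 to 18 reads per library of Δ21168 in light and 82 to 227 in darkness, against 0 to 3 reads in WT in light and 1 to 6 in darkness. Its strain effect was 4.83 ± 0.48, and 6.33 without WT light replicate 2, which held all 3 WT reads in light. TrF0701C had 24 to 46 reads in light and 222 to 457 in darkness in Δ21168, against 1 to 21 and 1 to 5 reads in WT, a strain effect of 4.74 ± 0.46 that was 5.58 without WT light replicate 3. With so few reads these SEs do not give the full counting error. Both genes were also higher in Δ80186 than in WT, by 2.22 ± 0.71 for TrD0682C and 2.34 ± 0.53 for TrF0701C. WT held so few reads that a lowering by light of at least 0.8 in Δ80186 also needed a dark level above that of WT. These differences are therefore a description as well.

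TrG0053C and TrE1143C fell most in Δ21168. TrG0053C averaged 86.8 ± 10.2 CPM in Δ21168 in light and 30.6 ± 8.28 CPM in darkness, against 245 ± 13.9 and 319 ± 65.7 CPM in WT (SD, n = 3 each), a strain effect of −2.49 ± 0.13 (edgeR adjusted p = 9.2e-10). In Δ80186 it was at 297 ± 14.4 CPM in light, close to WT, and at 64.2 ± 11.9 CPM in darkness. TrE1143C averaged 37.6 ± 3.74 CPM in Δ21168 in light and 87.1 ± 28.1 CPM in darkness, against 226 ± 22 and 304 ± 21.3 CPM in WT, with a strain effect of −2.24 ± 0.13 (edgeR adjusted p = 1.9e-09). It was lower in Δ80186 as well, with a strain effect of −1.77 ± 0.12 (edgeR adjusted p = 1.6e-08). These strain effects of Δ21168 cannot be told apart from the library number series.

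The mutants also differed from each other in level. In Δ80186 against Δ21168, 84 of the 116 genes changed, or 72.4% against 63.4% of all genes tested. Of the 116, 46 were higher and 38 lower, beside 31.7% of all genes in each direction, and 44.8% changed at least 2-fold, against 16.2%. Of the 97 that reached 5 CPM in both mutants, 41 were higher and 30 lower, together 73.2% against 66.8% of such genes. TrE0823C was higher in Δ80186 than in Δ21168 by 3.24 ± 0.28 (edgeR adjusted p = 3.4e-07). The other 3 genes named for this comparison reached 5 CPM in 1 mutant alone and are described without a test: TrF1143C, admitted through Δ80186, had a difference of 4.73 ± 0.25, and TrF0086C and TrD0682C, admitted through Δ21168, had −3.09 ± 0.40 and −2.61 ± 0.41. TrF0086C had 0 to 1 reads per library of Δ80186 in light and 13 to 29 in darkness, against 7 to 14 and 53 to 74 reads in Δ21168. TrE0823C, lowered by light in both mutants, thus stood at quite different levels in them. For TrF0086C and TrD0682C such a difference follows from how they were admitted.

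**Figure D4:**
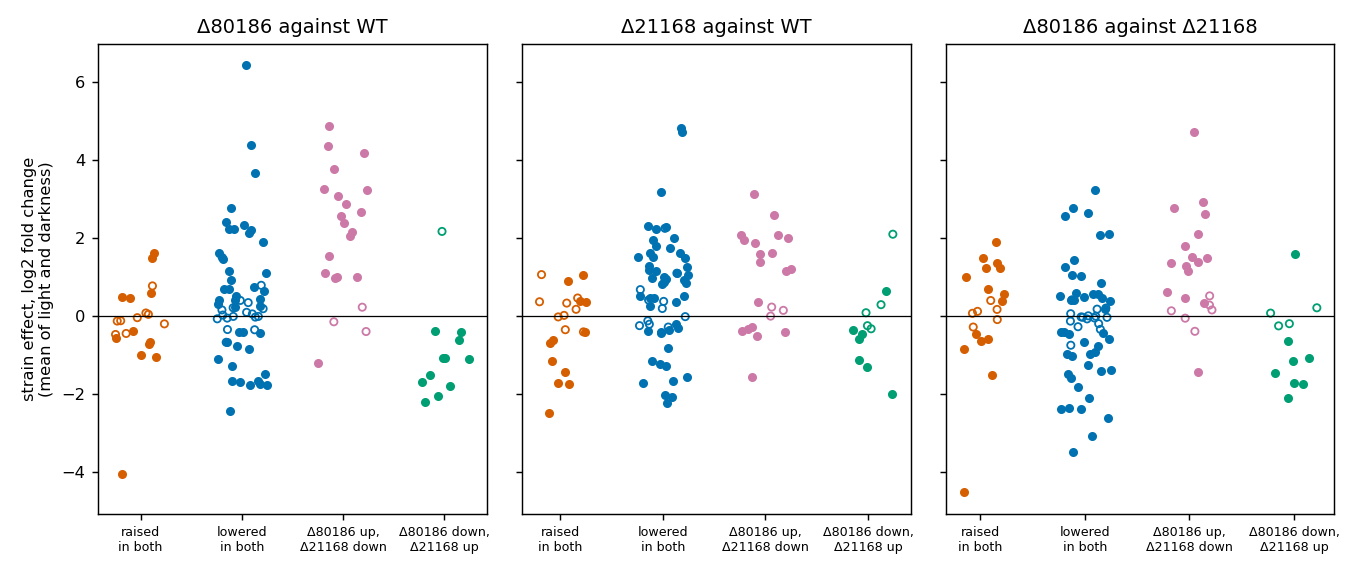
Strain effect (log2 fold change, mean of light and darkness) of the 116 genes by pattern of light response, for each mutant against WT and for Δ80186 against Δ21168. Filled points had an edgeR adjusted p under 0.05, open points did not. In Δ80186 against WT, 18 of 22 genes raised by light in Δ80186 and lowered in Δ21168 were higher, beside 27.5% of all genes. Of the 17 among them that reached 5 CPM in both strains, 13 were higher. Of the reverse pattern 11 of 12 were lower, beside 29.9% of all genes.

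To see the light responses in libraries that had no part in the choice, the rule was applied without the libraries of 1 replicate number, and L was then taken from the 6 left-out libraries, 1 per group. Without replicate numbers 1, 2 and 3 the rule chose 106, 112 and 120 genes. In the left-out libraries 99, 111 and 114 of them had the chosen sign in both mutants. A response of at least 0.8 in the chosen direction in both was reached by 76, 74 and 65, that is 71.7%, 66.1% and 54.2%. Over all genes without a WT response in the choosing libraries, 4.12%, 2.44% and 2.53% reached 0.8 in size in both mutants. WT stayed within 0.5 for 62, 79 and 72 of the chosen genes, so 41, 54 and 41 of them showed the full pattern with 1 library per group. The signs recurred in most of the chosen genes, and the full pattern in 34.2% to 48.2% of them. Since separate cultures are not stated for the replicates, a left-out library may repeat the culture of a choosing one. These shares therefore describe agreement among libraries, and recurrence in new cultures was not tested.

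Genes lowered by light in both mutants kept medians of −1.69, −1.57 and −1.51 in Δ80186 and −1.48, −1.25 and −1.25 in Δ21168 in the left-out libraries, with 48 of 64, 39 of 51 and 36 of 53 reaching the threshold. Genes raised in both had medians of 1.04, 1.12 and 1.28 in Δ80186 and 1.25, 0.98 and 0.89 in Δ21168, with 10 of 15, 10 of 24 and 15 of 23 reaching it. In WT the medians were 0.20, 0.35 and 0.46 for genes raised in both and −0.38, −0.27 and −0.27 for genes lowered in both. Genes of opposite response, both patterns counted apart, reached the threshold in 12 of 19, 16 of 23 and 9 of 26, and in 6 of 8, 9 of 14 and 5 of 18.

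**Figure D5:**
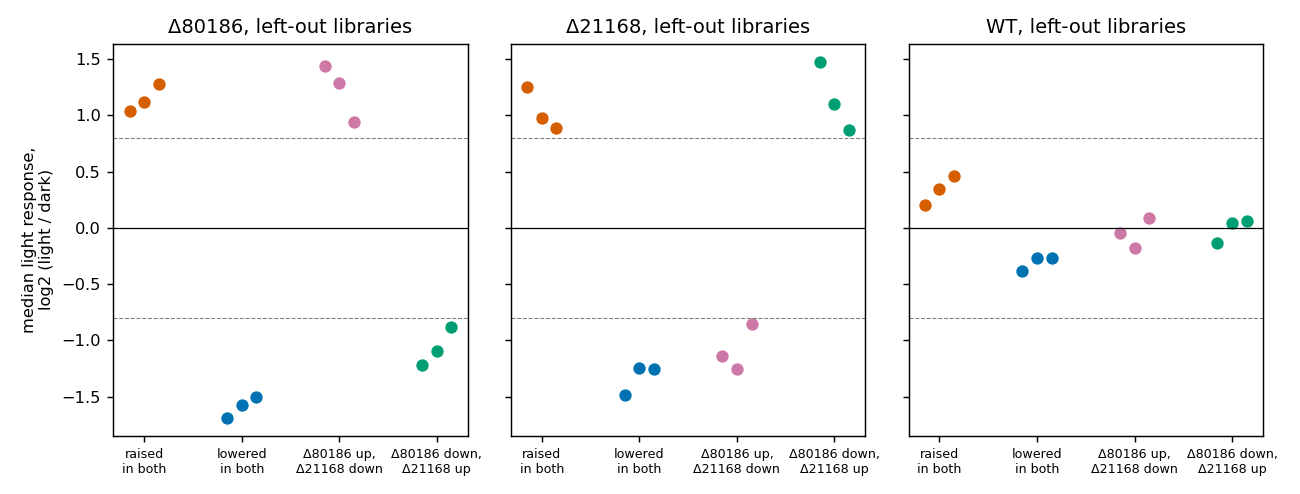
Median light response (log2 of light over dark) in the libraries left out of the choice, by pattern, for Δ80186, Δ21168 and WT. Each of the 3 points per pattern leaves out 1 replicate number, in the order 1, 2, 3, and dashed lines mark 0.8 in size. Mutant medians lie at 0.85 or more in size, WT medians between −0.38 and 0.46.

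The rule was sharp for many genes. When each of the 18 libraries was left out in turn, 48 of the 116 genes met the rule every time, 8 raised in both mutants, 25 lowered in both, 10 raised in Δ80186 and lowered in Δ21168, and 5 of the reverse. At the 5 CPM minimum, TrC0657C was just inside with a highest group mean of 5.41 CPM and TrB0014W just outside with 4.98 CPM. At the WT limit, TrA0193C had a response of 0.499 in size and TrG0593C one of 0.501. At the mutant minimum, TrD0262C had 0.8004 in Δ80186 and TrB1423W had 0.799, and TrB1452W had 0.801 in Δ21168 and TrB0172W had 0.797. The spread of the 116 genes was wider than that of genes at large: the median SD of log2 values (CPM plus 1) over the 3 libraries of a group ranged from 0.11 to 0.25 over the 6 groups, against 0.09 to 0.17 for the 8009 genes, and was highest in Δ21168 in darkness in both.

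Identifiers carry a letter from A to G and a number, and the files give no positions for them. Members with the letters D, F and G were 19.0%, 14.7% and 16.4% of the 116, against 13.1%, 9.49% and 10.8% of the 8009 genes. Those with A, B and E were 16.4%, 11.2% and 6.03%, against 20.5%, 18.8% and 12.1%. Consecutive numbers joined 14 of the 116 genes into 7 pairs, or 12.1%, where 1.87% of the 8009 genes were numbered next to 1 of the 116. No run was longer than 2. The sources used here do not give the strand setting of the counting, so that neighbours which overlap may share reads.

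In 3 of the 7 pairs both genes had the same pattern. TrD1406C, next to TrD1407W, had 18.5, 25.6 and 15.5 CPM in Δ80186 in light, against 2.70, 4.44 and 7.95 CPM in darkness, and at most 1.21 CPM in Δ21168 in light, against 4.19 to 6.08 CPM in darkness. TrA1720W and TrA1721W were both lower in light in Δ80186, with L of −1.22 and −1.32, and higher in light in Δ21168, with 0.997 and 1.16. TrC0657C and TrC0658W were both lower in light in both mutants, and TrC0657C had 0 reads in all 3 Δ80186 libraries in light, against 77 to 81 reads in darkness, at least 66.9-fold lower if the floor is set at 3 reads for the whole group. The other 4 pairs had unlike patterns. TrF0364C, next to TrF0363W, responded in the opposite direction in each mutant, with 574, 611 and 579 CPM in Δ80186 in light, against 298, 308 and 270 CPM in darkness, and 70.6, 57.3 and 62.0 CPM in Δ21168 in light, against 207, 168 and 110 CPM in darkness. The remaining pairs were TrD0628W with TrD0629W, TrD1440W with TrD1441C, and TrG0053C with TrG0054C.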

How the data were processed

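RNA-seq of mycelium was used from 18 libraries in 6 groups of 3, grouped by sample titles. The values used were raw read counts per gene as deposited by the authors. Column names were paired with sample descriptions, and 0 columns were left out. The submitters' processing notes name HISAT2 2.2.1 as a tool. Per the labels' protocols, libraries came from a stranded kit after depletion of ribosomal RNA. The strand setting, the treatment of multiple alignments and the build were not given in the sources used here. Of 10879 rows, 0 matched the reference list of 9116 genes, and 0 symbols of short lists of light, mating, MAP kinase and cellulase genes were found beside 3 rows of the mating type locus, which had at most 2 reads per library and are not members. CPM values were computed on column totals.

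Strain effects were tested with edgeR 4.0.16 (R 4.3.3), with TMM factors, filterByExpr (minimum count 10, minimum total count 15, 9079 genes kept), 1 mean per group and a quasi-likelihood test on a joint fit to the 18 libraries, with Benjamini-Hochberg adjustment over all genes tested and a threshold of 0.05. SE is the absolute log2 fold change over the square root of F. The test was tried on simulated data. No 2 libraries of a group agreed within sampling noise (chi-square per degree of freedom 4.37 to 85.5). Alternatives were DESeq2 1.42.0, other scalings, no filter, fewer samples and other settings of the rule. Counting error sets the precision of genes with few reads, and floors cover counting error only.

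The members, lists and tests were chosen with earlier results of these data known. Named identifiers were, per direction, the 2 members with the largest smaller response of the 2 mutants and no overlap of light and dark values, the most abundant member, per strain effect up to 2 higher and 2 lower members with no overlap in either condition, rows at each threshold, and members with consecutive numbers.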

Additional observations from a re-analysis of the deposited data

Results flagged for a closer look

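Among the named genes, 11 had light and dark libraries that did not overlap in either mutant and moved in opposite directions in the 2 mutants. They were listed for that trait, and the rule fixed the size of both responses, so nothing is read from the count. Over the 8009 genes, 44.4% had no overlap in both mutants, and 34.2% had none and moved in the same direction. The differences between the mutants were not tested, since the same light responses chose the genes. TrD1407W had an L of 2.40 in Δ80186 and −2.42 in Δ21168, TrD1406C had 1.79 and −2.04, TrB1283W had 1.83 and −0.84, and TrF1143C had 1.34 and −0.94. In the same direction, TrF0364C had 1.01 in Δ80186 and −1.34 in Δ21168, TrD1440W had 1.28 and −1.10, and TrG0054C had 0.89 and −0.95. In the reverse direction, TrF0363W had −3.33 in Δ80186 and 3.12 in Δ21168, TrF0358W had −1.84 and 1.03, TrA1721W had −1.32 and 1.16, and TrA1720W had −1.22 and 0.997.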

How the results depend on the processing

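The rule chose 108 to 122 genes with 1 library left out, in place of 116, with 18 to 29 raised in both mutants, 55 to 63 lowered in both and 30 to 41 opposite. Without Δ21168 dark replicate 1, which stood apart, it chose 108, of which 103 were among the 116. TMM-scaled library sizes moved the median light response of all genes in Δ21168 by −0.13 and gave 121 genes, 105 of them shared. A minimum of 10 CPM gave 98 genes, a pseudocount of 0.5 CPM 114 and group medians 120. The smallest pattern, lowered by light in Δ80186 and raised in Δ21168, moved more than these totals. In place of 12 genes it held 9 with TMM-scaled library sizes and 17 with a pseudocount of 0.5 CPM.

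Counts of members called in the strain effects stayed within 1.5 times their value, except with only genes at 5 CPM in both strains compared, a restriction chosen after seeing the data that leaves fewer genes. It gave 33 higher and 31 lower in Δ80186 against WT, in place of 50 and 35, and 33 and 34 in Δ21168 against WT, in place of 52 and 36. It gave 41 and 30 in Δ80186 against Δ21168, in place of 46 and 38. For the other alternatives run, no named gene lost its call or changed sign. With 1 library left out, 47 to 53 members were higher and 33 to 36 lower in Δ80186 against WT, 49 to 53 and 31 to 38 in Δ21168 against WT, and 43 to 47 and 36 to 40 in Δ80186 against Δ21168. DESeq2 gave 53 higher and 35 lower, 56 and 33, and 47 and 38 in the same order. Over all genes, 49.7% of the calls were higher in Δ21168 against WT, 54.3% with DESeq2 and 57.1% with library totals alone. Same-numbered libraries had correlations of deviations between −0.36 and 0.60, highest for replicate 1 of Δ21168 and WT in darkness. No common pairing by replicate number was seen, but without a baseline from differently numbered libraries these values cannot exclude one. With the replicate block, 51 members were higher and 34 lower in Δ80186 against WT, 52 and 35 in Δ21168 against WT, and 47 and 37 between the mutants. Counts of departures from WT, an alternative chosen after seeing the data, held within 1.5 times for those of at least 8 genes, with TMM scaling and with any 1 library left out. Few reads limit the genes under about 5 CPM in a group, where the folds depend on the pseudocount.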
